A study of Mus musculus with 10 samples.

Results

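The suprabasal keratins examined here are Krt1, Krt2, Krt10, Krt77 and Krt80, 5 genes chosen by name as keratins of the spinous and granular layers of the epidermis. All 5 were present in both gene tables of the series, which held 18502 genes in the Eed table and 18344 in the Ring1 table, and all 5 passed the filter on low values in both. RNA sequencing measured them in mouse back-skin keratinocytes taken at postnatal day 71, in 10 libraries and 4 groups. The groups were Eed KO (genotype Eed -/-, n = 3) with Eed control (n = 3), and Ring1a/b 2KO (genotype Ring1a-/- Ring1b-/-, n = 2) with Ring1 control (n = 2), and each knockout had its own control. Eed encodes a core subunit of Polycomb repressive complex PRC2, and Ring1 and Rnf2 (the labels' Ring1a/b) encode the ubiquitin ligases of PRC1. The labels give the same induction for all 4 groups, 4-hydroxytamoxifen at 20 mg/ml in ethanol, 100 µl a day on shaved back skin for 4 days from postnatal day 50. No source used here gives the recombinase, its promoter, the floxed exons, the alleles of the controls or whether each library was 1 mouse, and p-values therefore measure only the spread between these samples.

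Keratins form the intermediate filaments of epithelial cells and assemble as pairs of a type I and a type II protein. Basal keratinocytes make Krt5 and Krt14; when a cell leaves the basement membrane and enters the spinous layer it turns to the pair of Krt1 (type II) and Krt10 (type I), the main filament proteins of the suprabasal epidermis. Krt2 is a type II keratin of the upper spinous and granular layers, in mice most abundant in ear, tail and sole skin, Krt77 is a type II keratin close to Krt1 in sequence and position, and Krt80 is a type II keratin of differentiating epithelia. Sorting took EpCAM-positive, Sca1-positive cells with high α6-integrin, the surface profile of basal cells between the hair follicles, so the 5 genes were measured in a population in which their layers should be a minority. In bulk samples, fewer cells of a type and less RNA per cell cannot be told apart.

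Reads per library, recovered from the deposited normalized values, ranged from 31699979 to 40701183 in Eed KO and from 32667439 to 39006853 in Eed control, and were 19814853 and 6237389 in Ring1a/b 2KO and 25158144 and 7162907 in Ring1 control. Ring1a/b 2KO library 2 stood apart with 12.7% of reads from mitochondrial genes, against 8.16% in 2KO library 1 and 6.51% and 7.28% in Ring1 control. It also had the fewest reads, though Ring1 control 2 was nearly as shallow. The members together took from 0.359% to 0.93% of reads in Eed KO, from 0.702% to 1.17% in Eed control, 0.486% and 0.479% in Ring1a/b 2KO, and 0.382% and 0.36% in Ring1 control. The targeted genes did not separate the groups by whole-gene counts. Eed had normalised read counts of 1412, 1143 and 1340 in Eed KO and 1845, 1319 and 1706 in Eed control (limma log2 fold change −0.31, adjusted p = 0.989). Ring1 had 104 and 115 in Ring1a/b 2KO and 66.2 and 211 in Ring1 control, and Rnf2 had 720.1 and 529 in 2KO and 675 and 669.7 in control. Since the deleted exons are not given, these counts cannot check the labels. The defining basal genes were high in every library, with Krt5 between 497711 and 737780 in Eed KO, between 410630 and 721908 in Eed control, 121324 and 107871 in 2KO and 133542 and 113885 in Ring1 control.

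Krt2, Krt1 and Krt77 lie next to each other on the minus strand of mm10 chromosome 15, with 27.3 kb between the bodies of Krt2 and Krt1 and 7.9 kb between those of Krt1 and Krt77. Krt2 (ENSMUSG00000064201.8) spans 101810689 to 101818169, Krt1 (ENSMUSG00000046834.7) spans 101845426 to 101850794 and Krt77 (ENSMUSG00000067594.6) spans 101858731 to 101869705. Krt80 (ENSMUSG00000037185.9) lies apart on the same chromosome, 101347444 to 101370162, and its nearest coding neighbour on one side is Krt7 on the opposite strand. Krt10 (ENSMUSG00000019761.10) lies in the type I keratin cluster on chromosome 11, 99385254 to 99389364. The RefSeq promoter table of GRCm38.p6, which gives 250 bases before and 50 after each start site, held 3 of the 5 members, Krt2, Krt10 and Krt77. They are shown because Krt2 and Krt77 are members of 1 cluster whose estimates had opposite signs in Eed KO, with Krt10 as the main type I keratin of the same layer. All 3 are on the minus strand and run 5′ to 3′, and capitals mark a match to TATATA or TATAAA.
Krt2 promoter, chr15:101818120-101818419: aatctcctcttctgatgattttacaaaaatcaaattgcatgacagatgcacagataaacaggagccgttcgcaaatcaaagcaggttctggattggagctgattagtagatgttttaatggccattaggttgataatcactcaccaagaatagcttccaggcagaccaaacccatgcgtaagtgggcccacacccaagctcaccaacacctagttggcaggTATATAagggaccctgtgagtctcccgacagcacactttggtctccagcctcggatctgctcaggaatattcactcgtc
Krt10 promoter, chr11:99389315-99389614: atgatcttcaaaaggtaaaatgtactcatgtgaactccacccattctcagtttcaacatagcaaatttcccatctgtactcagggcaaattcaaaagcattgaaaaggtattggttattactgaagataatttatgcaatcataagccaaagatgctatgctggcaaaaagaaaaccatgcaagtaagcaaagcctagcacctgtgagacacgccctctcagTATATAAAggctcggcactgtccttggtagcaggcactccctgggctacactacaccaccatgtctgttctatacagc
Krt77 promoter, chr15:101869656-101869955: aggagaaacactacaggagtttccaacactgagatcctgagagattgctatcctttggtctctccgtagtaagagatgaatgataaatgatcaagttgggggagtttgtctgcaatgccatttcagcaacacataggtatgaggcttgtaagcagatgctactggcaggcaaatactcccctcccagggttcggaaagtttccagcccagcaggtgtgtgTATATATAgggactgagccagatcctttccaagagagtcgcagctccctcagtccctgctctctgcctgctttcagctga
TATATA stands with its first base at −29 in Krt2, at −28 in Krt10 and at −30 and −28, overlapping each other, in Krt77, counted from the start site; TATAAA overlaps it at −26 in Krt10 and was not found in the windows of Krt2 and Krt77. TATATA was searched after the sequences had been read, and either strand of 5.67% of all 32851 promoters of this length holds it, against 13.6% for TATAAA. The windows hold 6 (Krt2), 2 (Krt10) and 3 (Krt77) CG dinucleotides, where the median of all promoters is 7. The letters TGANTCA (AP-1; 7.81% of promoters) and GCCNNNGGC (AP-2; 16.6%) were found in none of the 3 windows on either strand, and CACCC (KLF; 57.5%) was found in Krt2 and Krt10.

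Levels were compared between members only per kilobase of transcript. In all 6 Eed libraries the order, high to low, was Krt10, Krt1, Krt77, Krt80 and Krt2. Krt10 made up 56.2% ± 1.31 of the summed reads per kilobase of the members in Eed KO and 57.4% ± 2.22 in Eed control (SD, n = 3 each), and Krt1 made up 27.7% ± 3.66 and 24.5% ± 1.00. Krt77 made up 13.3% ± 4.05 in Eed KO and 15.9% ± 2.72 in Eed control, and Krt80 2.36% ± 0.65 and 2.15% ± 0.309. Krt2 was the least abundant member in every library, with shares of 0.18% to 0.582% in Eed KO and 0.0126% to 0.0529% in Eed control.

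The order differed between the Ring1 groups. In both Ring1a/b 2KO libraries Krt1 came first, ahead of Krt10, Krt77, Krt80 and Krt2, while in both Ring1 controls the order was Krt10, Krt77, Krt1, Krt80 and Krt2. Krt1 took 40.4% and 64.9% of the summed reads per kilobase in 2KO libraries 1 and 2, against 28.8% and 23.5% in controls 1 and 2. Krt77 took 17.6% and 2.07% in 2KO, against 30.0% and 28.2% in control. Neighbours in this order did not all differ beyond their spread: Krt1 and Krt10 in 2KO library 1 had 9869 and 9533 normalised reads per kilobase, and Krt77 and Krt1 in control 1 had 5915 and 5681.

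**Figure D1:**
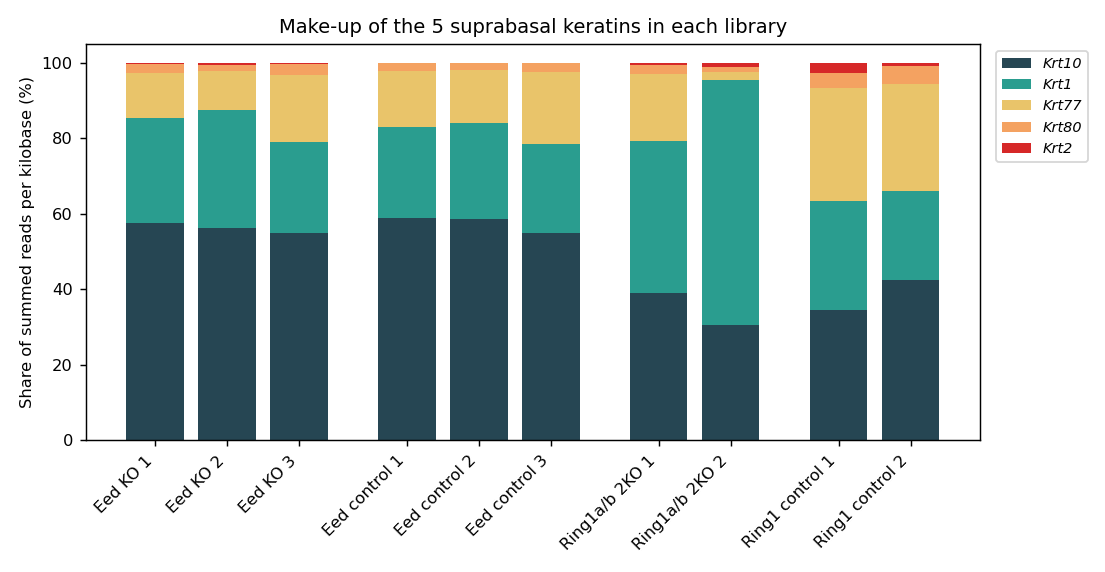
Share of the summed reads per kilobase of the 5 suprabasal keratins taken by each gene (vertical axis, percent), 1 stacked bar per library. The 6 Eed bars resemble one another apart from the thin Krt2 band, whereas Krt1 takes 40.4% and 64.9% in the Ring1a/b 2KO libraries, against 28.8% and 23.5% in Ring1 control.

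The Eed comparison asks what these keratins do when PRC2 loses a core subunit. Krt2 was higher in Eed KO and the other 4 members had lower means, by amounts that did not pass the limma test. The main test was limma on log2(normalised read count + 1) over 16122 genes, with Benjamini-Hochberg adjustment over all of them. It called 0 genes (0%), with 762 genes (4.73%) at an unadjusted p under 0.05, and the authors' deposited table called 127 of 16684 genes (0.761%), 0.707% higher and 0.0539% lower. edgeR on the recovered reads called 0. Of the members, Krt2 was called in the authors' deposited table.

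Krt2 had normalised read counts of 536, 2059 and 354 in Eed KO libraries 1 to 3, against 42.9, 162 and 135 in Eed control 1 to 3. Every KO library was above every control, and KO library 2 was far above the other KO libraries. The mean was 983 ± 936 in Eed KO and 113 ± 62.5 in Eed control (SD, n = 3 each), an 8.68-fold ratio of means, with a limma log2 fold change of 2.89 (SE 0.683, 95% interval 1.35 to 4.43, unadjusted p = 0.00208, adjusted p = 0.579). The authors' deposited table gives 3.12 (SE 0.616, adjusted p = 0.000317). With DESeq2 on the recovered reads that call was lost without KO 1 (adjusted p = 0.303), without control 2 (adjusted p = 0.0878) or without control 3 (adjusted p = 0.263). The log2 fold change was still between 1.98 and 3.52 in all 6 such runs. Calls over all genes also moved in these runs, from 30 without KO 1 to 189.

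Krt77, the neighbour of Krt1, had 20471, 40056 and 39361 normalised reads in Eed KO, against 56312, 81146 and 54201 in Eed control. All 3 KO libraries were below all 3 controls, and KO library 1 was the lowest. The mean in KO was 52.1% of that in control, with a limma log2 fold change of −0.98 (SE 0.318, 95% interval −1.70 to −0.26, unadjusted p = 0.0126, adjusted p = 0.892). Krt80 had 5445, 9007 and 8832 in Eed KO, against 10591, 14614 and 9470 in Eed control. The groups again did not overlap, with a narrow gap between KO 2 and control 3, and the log2 fold change was −0.59 (SE 0.258, unadjusted p = 0.0486, adjusted p = 0.989).

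The main pair overlapped between groups. Krt1 had 39732, 104301 and 44435 normalised reads in Eed KO, against 77567, 125012 and 56455 in Eed control, a log2 fold change of −0.52 (SE 0.423, 95% interval −1.48 to 0.43, adjusted p = 0.989), which was −0.96 without KO 2 and −0.22 without control 2. Krt10 had 70173, 159313 and 86443 in Eed KO, against 159867, 243861 and 111761 in Eed control, a log2 fold change of −0.72 (SE 0.396, 95% interval −1.62 to 0.17, adjusted p = 0.989). In both genes library 2 was the highest of its group. Counting members whose groups did not overlap, 1 of 5 was higher and 2 of 5 were lower, where 5.06% of all genes tested were higher and 4.15% lower in that way. Mitochondrial genes took 3.31%, 3.58% and 2.85% of reads in Eed KO, against 2.34%, 2.81% and 2.51% in Eed control, also without overlap, and the part of this share in the members' values was not tested.

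**Figure D2:**
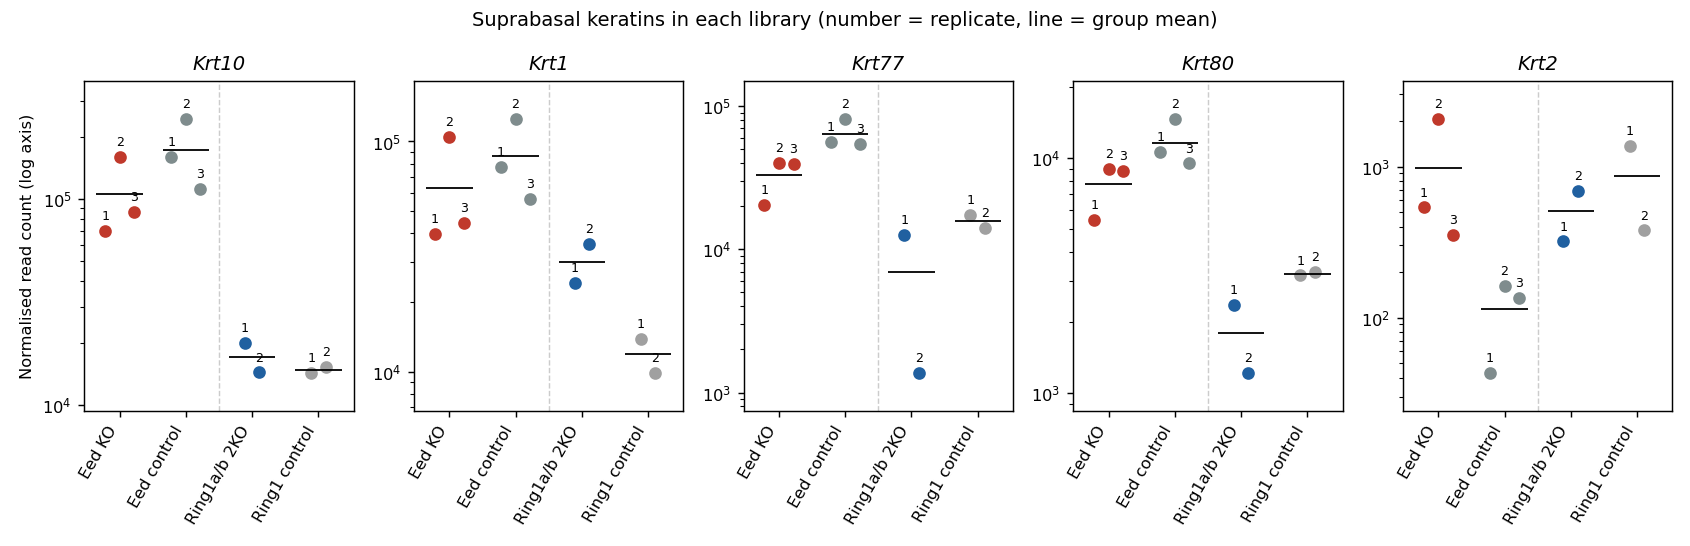
Normalised read count of each suprabasal keratin in every library (vertical log axis, a separate scale per gene), knockout left of its control on either side of the dashed line, with group means as lines. Krt2 in the 3 Eed KO libraries sits at 354 to 2059, above the 42.9 to 162 of Eed control, and Krt1 in the Ring1a/b 2KO libraries sits at 24228 and 35925, above the 13947 and 9866 of Ring1 control.

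The Ring1 comparison asks the same of PRC1. Krt1 was higher in Ring1a/b 2KO, Krt77 and Krt80 had lower counts in both 2KO libraries than in either control, and Krt10 and Krt2 overlapped between groups. The limma test, run as above, called 6 of 15310 genes (0.0392%), none of them a member, with 10.4% at an unadjusted p under 0.05. The authors' deposited table called 231 of 15498 genes (1.49%), 1.18% higher and 0.31% lower, and Krt1 was the member it called. Of the members, 1 of 5 was higher and 2 of 5 lower without overlap, but with 2 libraries a group 21.4% of all genes tested were higher and 21.5% lower in that way.

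Krt1 had 24228 and 35925 normalised reads in Ring1a/b 2KO libraries 1 and 2, against 13947 and 9866 in Ring1 control 1 and 2. Both 2KO libraries were above both controls, and 2KO library 2 was the higher. The mean was 30077 ± 8271 in 2KO and 11907 ± 2886 in control (SD, n = 2 each), 2.53-fold, with a limma log2 fold change of 1.33 (SE 0.275, 95% interval 0.71 to 1.95, unadjusted p = 0.000829, adjusted p = 0.184). The authors' deposited table gives 1.34 (SE 0.305, adjusted p = 0.00247). With DESeq2 on the recovered reads the call was lost without control 1 (adjusted p = 0.0763), without control 2 (adjusted p = 0.526) or without 2KO 2 (adjusted p = 0.0603), with log2 fold changes from 1.04 to 1.61 over the 4 such runs.

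Krt10, the partner of Krt1, had 19962 and 14362 normalised reads in 2KO, against 14251 and 15243 in control. The groups overlapped, and the log2 fold change was 0.20 (SE 0.238, 95% interval −0.34 to 0.74, adjusted p = 0.813); without 2KO 1 it was −0.037. Krt2 had 319.5 and 690.3 in 2KO, against 1363 and 377 in control. Control 1 was the highest of the 4 and 2KO 1 the lowest, the log2 fold change was −0.61 (SE 0.887, adjusted p = 0.864), and without control 1 it was 0.32.

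Krt77 had 12594 and 1366 normalised reads in Ring1a/b 2KO, against 17338 and 14127 in Ring1 control. The 2KO libraries differed 9.22-fold from each other and the group means 2.25-fold, and the log2 fold change of −1.92 had an SE of 1.47 (95% interval −7.31 to 3.48, adjusted p = 0.748). It rested on 2KO library 2, which also had the fewest reads and the largest mitochondrial share: without that library it was −0.31 (adjusted p = 1.00), and without 2KO 1 it was −3.52 (adjusted p = 0.000465, with the lone 2KO library assumed to vary like the controls). Krt80 had 2373 and 1217 in 2KO, against 3169 and 3267 in control, a log2 fold change of −0.92 (SE 0.31, 95% interval −1.64 to −0.20, unadjusted p = 0.019, adjusted p = 0.399). Without 2KO 1 it was −1.40, and without 2KO 2 it was −0.44, each with 1 2KO library left. Ring1 control 2, which was nearly as shallow as 2KO library 2 (7162907 and 6237389 reads), had 14127 normalised reads of Krt77 and 3267 of Krt80. The part of depth and mitochondrial share in the Krt77 and Krt80 values was not tested.

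Whether a member responded differently in the 2 models was tested as a difference of log2 fold changes, Eed KO over its control minus Ring1a/b 2KO over its control, in one fit over 15096 genes. It called 0 genes (0%), with 285 genes (1.89%) at an unadjusted p under 0.05. Krt1 had a difference of −1.85 (SE 0.638, 95% interval −3.25 to −0.46, unadjusted p = 0.0134) and Krt2 one of 3.50 (SE 1.22, 95% interval 0.76 to 6.24, unadjusted p = 0.0178), and the adjusted p was 1.00 for both. Krt10 (−0.92, 95% interval −2.18 to 0.33), Krt77 (0.94, −1.40 to 3.27) and Krt80 (0.33, −0.64 to 1.31) had intervals that include 0. No member therefore passed the test of a difference between the models.

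**Figure D3:**
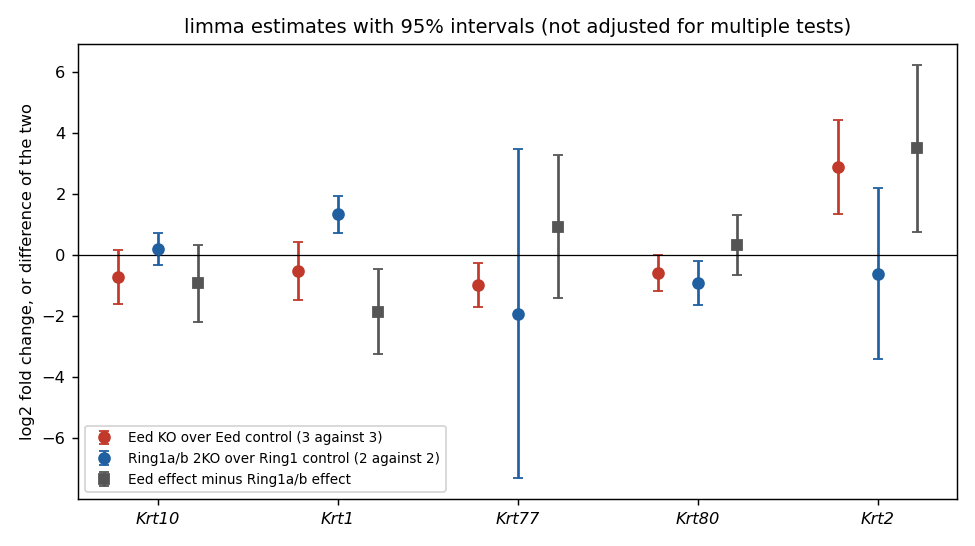
limma log2 fold change of each member in Eed KO over Eed control (red) and Ring1a/b 2KO over Ring1 control (blue), and the difference of the 2 (grey squares), with 95% intervals that are not adjusted for the number of genes. Krt2 in Eed KO (2.89) and Krt1 in Ring1a/b 2KO (1.33) are the positive fold changes over control whose intervals exclude 0, and the interval of Krt77 in 2KO runs from −7.31 to 3.48.

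Set against the basal keratins of the same library, Krt5 plus Krt14, the members gave a ratio that does not depend on library scaling. Krt77 reads were 1.46%, 4.51% and 4.65% of Krt5 plus Krt14 reads in Eed KO, against 7.36%, 6.83% and 6.36% in Eed control, and 6.10% and 0.737% in Ring1a/b 2KO, against 7.66% and 8.24% in Ring1 control. Krt77 was thus lower in all 5 knockout libraries than in any control of its own table. The log2 difference of the ratio was −1.13 in the Eed comparison (exact permutation test, two-sided p = 0.1, the smallest that 3 against 3 allows) and −1.91 in the Ring1 comparison (exact p = 0.333, the smallest that 2 against 2 allows). Krt80 also had no overlap in either comparison, with differences of −0.73 and −0.91 at those same smallest p-values. Krt2 differed by 2.76 in the Eed comparison (exact permutation p = 0.1) and by −0.60 in the Ring1 comparison (exact permutation p = 0.667). Krt1 was 2.84%, 11.7% and 5.25% of Krt5 plus Krt14 in Eed KO, against 10.1%, 10.5% and 6.63% in Eed control, and 11.7% and 19.4% in 2KO, against 6.16% and 5.76% in Ring1 control. Eed KO library 1, which had the most Krt5 and Krt14 of the 6 Eed libraries (737780 and 662363 normalised reads), had the lowest ratio of Krt1, Krt10, Krt77 and Krt80.

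Ratios between members were looked at after their values had been seen and are given as a description. Krt1 over its partner Krt10, per kilobase, was 0.483, 0.558 and 0.438 in Eed KO, against 0.414, 0.437 and 0.431 in Eed control, a mean log2 difference of 0.20 with the KO libraries narrowly above the controls, while the level of either gene varied more than 2-fold within each group. In Ring1a/b 2KO the ratio was 1.03 and 2.13, against 0.835 and 0.552 in Ring1 control, with Krt1 above Krt10 in both 2KO libraries and below it in both controls. Krt2 per kilobase was 1.27%, 1.85% and 0.749% of Krt1 in Eed KO, against 0.0519%, 0.122% and 0.224% in Eed control. It was 1.24% and 1.81% of Krt1 in Ring1a/b 2KO, against 9.18% and 3.59% in Ring1 control. The ratio of Krt2 to Krt1 was therefore above control in all 3 Eed KO libraries and below control in both 2KO libraries.

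**Figure D4:**
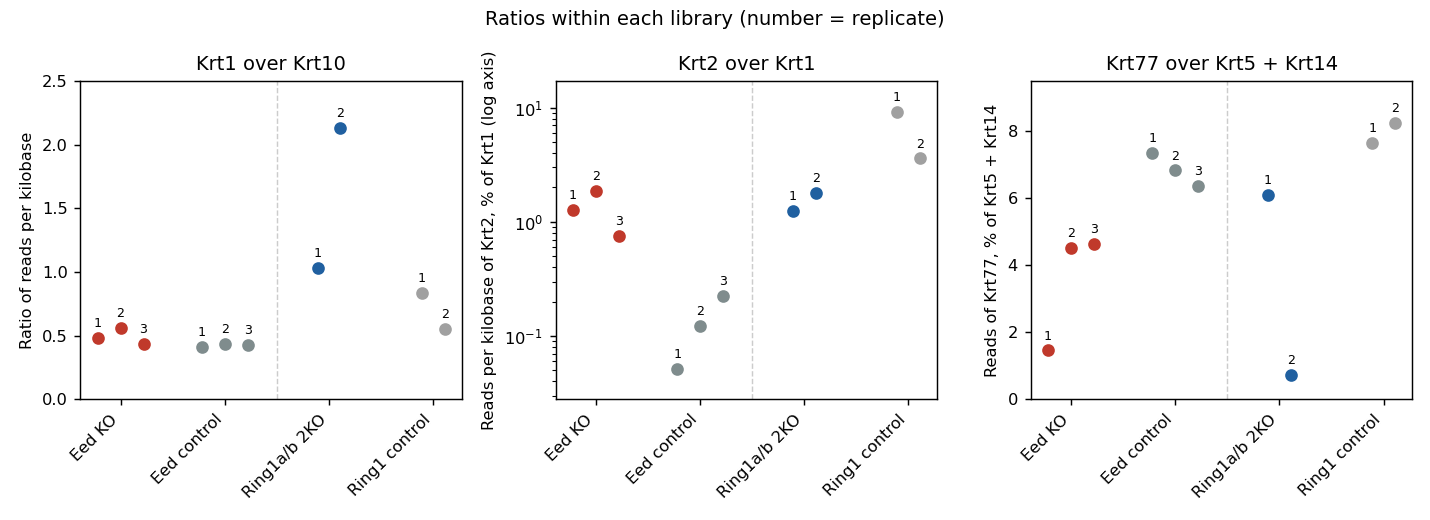
Krt1 over Krt10 and Krt2 as a percentage of Krt1 (both per kilobase, the second on a log axis) and Krt77 reads as a percentage of Krt5 plus Krt14 reads, 1 point per library labelled with its replicate number. Krt2 over Krt1 is higher in Eed KO (0.749% to 1.85%) than in Eed control (0.0519% to 0.224%) and lower in 2KO (1.24% and 1.81%) than in Ring1 control (9.18% and 3.59%).

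Taken over all 10 libraries together, the members did not vary as one block. Over the 10 libraries, each centred on the mean of its own table, Krt77 and Krt80 had a Pearson r of 0.938 and Krt1 and Krt10 one of 0.711, whereas Krt1 and Krt2 had −0.011 and Krt1 and Krt77 −0.25. These 10 points share 2 tables and the group differences themselves, so they are descriptions. In Ring1a/b 2KO library 2, Krt1 was the highest of the Ring1 libraries (35925 normalised reads) and Krt77 the lowest (1366). The value for Krt1 and Krt77 was not computed without that library or over the Eed libraries alone. Within Eed KO and within Eed control, Krt1 and Krt77 ranked the libraries in the same order, with library 2 highest. The negative value over all libraries therefore does not describe the Eed groups. Among 11032 genes that averaged 50 or more in each of the 2 tables, the profile nearest to Krt77 was that of Krt78, another keratin of the upper layers (r = 0.995, and 0.982 over the 6 Eed libraries alone), followed by Tppp (0.99) and Cd274, which encodes the immune checkpoint ligand PD-L1 (0.988). Nearest to Krt80 were Dennd4c (0.985), Susd2 (0.982) and Dip2b (0.981). Gpr157 (0.923) and Eef2k (0.915) were among the 3 nearest to Krt10, nearest to Krt1 were Fan1 (0.964), Chst3 (0.892) and Slc9a9 (0.888), and nearest to Krt2 were Prdm8 (0.89), Ddx59 (0.858) and Tmem18 (0.85).

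The other genes of the layers give the setting. Late differentiation genes, which build the granular and cornified layers, had negative log2 fold changes in 31 of 38 tested in Eed KO, where 51.2% of all genes were positive. They had a median of −0.59 where the median of all genes was 0.01. Neither limma nor the authors' deposited table called any of them, and 5 were at an unadjusted limma p under 0.05, where 4.73% of all genes were. Their summed normalised reads were 67979, 97130 and 86487 in Eed KO, against 105539, 118414 and 116906 in Eed control, without overlap. The 4 with the smallest unadjusted p were Alox12b, a lipoxygenase of the lipid barrier (log2 fold change −1.65), the protease inhibitors Cst6 (−0.73) and Spink5 (−1.05), and the crosslinking enzyme Tgm1 (−1.13). The members' median of −0.59 lay at the same place, and Krt2 alone among the 5 had the opposite sign. Spinous genes had 17 of 20 negative with a median of −0.32, for example the cell surface protein Lypd3 (−0.53) and the secreted Sbsn (−0.62), and 0 called by either. Regulators of differentiation had 21 of 30 negative with a median of −0.14, and 0 called by either. Klf4, a transcription factor needed for barrier formation, had 31160, 35734 and 51440 in Eed KO, against 74863, 55022 and 56043 in Eed control (log2 fold change −0.67, adjusted p = 0.989).

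In Ring1a/b 2KO late differentiation genes had 29 of 39 tested negative, with a median of −0.57 where the median of all genes was −0.0006. The limma test called 0 of them, with 15 at an unadjusted p under 0.05, where 10.4% of all genes were. The authors' deposited table called 5 lower and 2 higher, where it called 0.31% of all genes lower and 1.18% higher. The median was −0.15 without Ring1 control 1. Those called lower were Flg2, a filaggrin-like barrier protein (log2 fold change −2.93 in the authors' deposited table), Crct1 (−2.74), the corneodesmosome protein Cdsn (−2.17), Lor, which encodes loricrin, the main protein of the cornified envelope (−2.17), and Lce1c (−2.95). Flg2 had 120.5 and 46.6 normalised reads in 2KO, against 827 and 480.3 in control, and Lor had 159 and 73.5, against 754 and 301. The 2 called higher, Sprr1b and Sprr2d, are small proline-rich envelope proteins, and Sprr2d was at 0 in both controls. Krt1 was thus above control in the same 2 libraries in which Lor and Flg2 were below it. Krt10 overlapped its controls, and Krt77 and Krt80 had the sign of most late genes. The members' median in 2KO was −0.61, with 3 of 5 negative. That median is the value of Krt2, whose groups overlapped and whose log2 fold change was 0.32 without Ring1 control 1. A difference between the members and the late genes was not tested.

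Spinous genes in 2KO had 14 of 20 negative with a median of −0.10. That median was 0.14 without Ring1 control 1, 0.053 without 2KO 2, −0.27 without Ring1 control 2 and −0.42 without 2KO 1. The authors' deposited table called 1 of them higher, where it called 1.18% of all genes higher. It was Fabp5, a fatty acid binding protein (2126 and 3161 normalised reads in 2KO, against 983 and 626 in control). The desmosomal cadherin Dsg1a had 9363 and 4615 in 2KO, against 12444 and 12392 in control (log2 fold change −0.92, adjusted p = 0.416). Basal layer genes had 12 of 13 negative with a median of −0.51, and 11 of the 13 were lower without overlap, where 21.5% of all genes were. The hemidesmosome collagen Col17a1 (−0.92, adjusted p = 0.331) and Itga6 (−0.68, adjusted p = 0.372), the sorted α6-integrin itself, were among them. In Eed KO 10 of 13 basal layer genes were negative, with a median of −0.13, and Itga6 overlapped between groups. Differentiation regulators in 2KO had 22 of 30 negative with a median of −0.29 (−0.037 without 2KO 2 and −0.58 without 2KO 1), including the Notch ligands Jag1 (−0.85, adjusted p = 0.28) and Jag2 (−0.63, adjusted p = 0.349), and 0 were called by either.

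**Figure D5:**
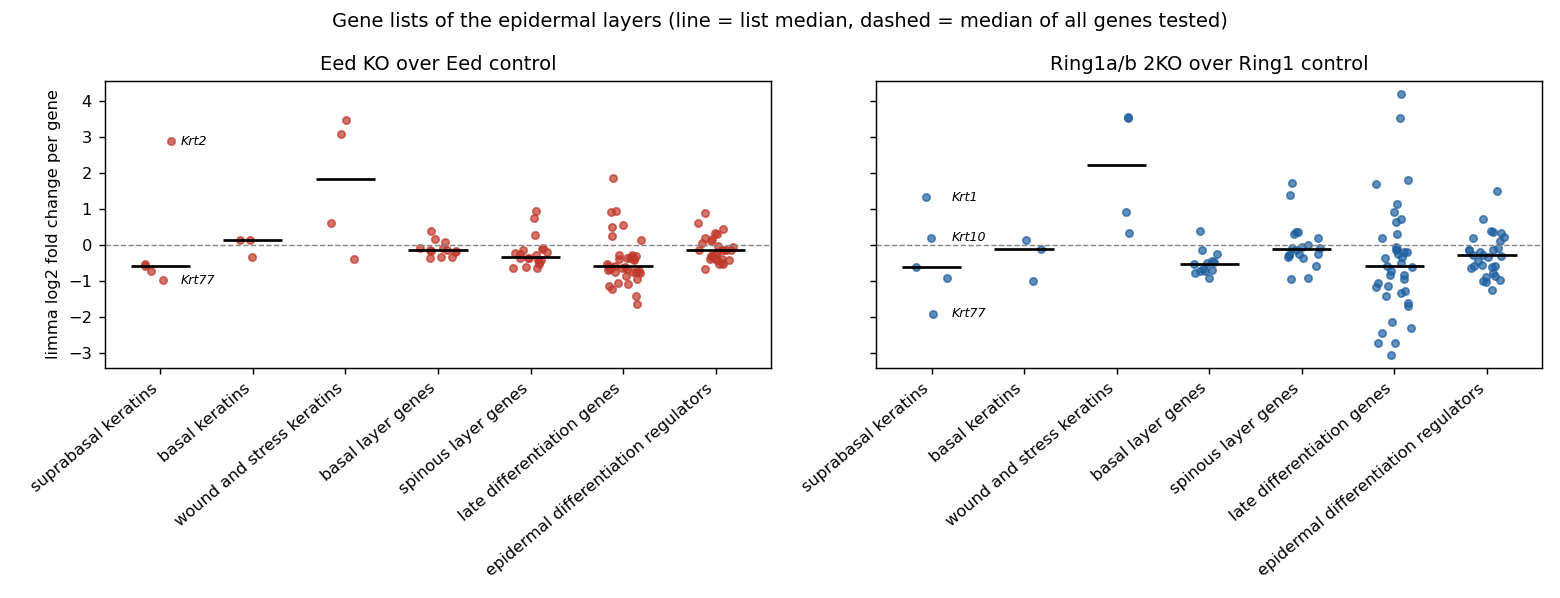
limma log2 fold change of every tested gene in 7 lists (points), with list medians as lines and the median of all genes tested dashed, for Eed KO over control on the left and Ring1a/b 2KO over control on the right. Late differentiation genes centre on −0.59 and −0.57 and the members on −0.59 and −0.61. The last of these is the value of Krt2, whose Ring1 groups overlapped. Krt2 in Eed KO (2.89) and Krt1 (1.33) and Krt10 (0.20) in 2KO lie above 0.

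Among the other keratins with a mean of at least 50, Krt6a and Krt6b, keratins of wounded or stressed epidermis, had the highest estimates in both comparisons. Krt6a had 34323, 4531 and 7210 normalised reads in Eed KO, against 1634, 808 and 1342 in Eed control, and 1788 and 4465 in Ring1a/b 2KO, against 147 and 389 in Ring1 control. The authors' deposited table called it higher in both, with log2 fold changes of 3.61 (adjusted p = 0.0228) and 3.55 (adjusted p = 0.00926). Krt6b had limma log2 fold changes of 3.49 (adjusted p = 0.823) and 3.55 (adjusted p = 0.485), and since Krt6a and Krt6b are nearly identical, reads may have been split between them. Krt7, a keratin of simple epithelia and the neighbour of Krt80, had 392.1, 143 and 792 in Eed KO, against 112, 119 and 136 in Eed control, and 183 and 264 in 2KO, against 50.5 and 81.4 in Ring1 control. It was called higher by the authors' deposited table in both (1.86, adjusted p = 0.0451, and 1.78, adjusted p = 0.0135), whereas Krt80 beside it was lower in every knockout library than in any control of its table. Krt78 was lower without overlap in both (limma −1.24, adjusted p = 0.78, and −2.15, adjusted p = 0.708). Krt23 had −1.12 (adjusted p = 0.989) and −2.18 (adjusted p = 0.567), and Krt17 0.61 (adjusted p = 0.989) in Eed KO. Krt16, which is also a keratin of stressed epidermis, had limma log2 fold changes of −0.38 (adjusted p = 0.989) in Eed KO and 0.34 (adjusted p = 0.949) in 2KO, and its groups overlapped in both. Krt24 had 488 and 256 in 2KO, against 76.1 and 78.1 in Ring1 control, and was called higher by the authors' deposited table (2.28, adjusted p = 9.07e-05). Of other keratins with a mean of at least 50, 9 of 14 were positive in Eed KO and 8 of 13 in 2KO, and limma called 0 in either. The authors' deposited table called 2 and 3 of them higher and 0 lower, where it called 0.707% and 1.18% of all genes higher. The basal keratins Krt5 and Krt14 had log2 fold changes of 0.15 and 0.14 in Eed KO and −0.11 and 0.15 in 2KO, and Krt15 had −0.34 and −0.99 (adjusted p = 0.349 in 2KO).

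Markers of other cells moved with the groups in part. Merkel cell markers, of which 6 of 7 listed were measured, summed to 76.5 to 345 normalised reads in Eed KO, against 28.4 to 39.0 in Eed control, and to 148 to 183 in 2KO, against 18.3 to 18.8 in Ring1 control. Most of this was Isl1 and Krt18, while the defining Krt20 was between 0 and 2.40 in Eed KO, between 0 and 4.05 in Eed control, 0.618 and 0 in 2KO and 0.521 and 9.97 in Ring1 control. Isl1 was called higher by the authors' deposited table in Eed KO (adjusted p = 2.59e-05) and in 2KO (adjusted p = 0.000672). Krt18 was called higher there in 2KO (adjusted p = 0.00592). Hair follicle markers (15 of 16 measured) summed to 5339 to 9398 in Eed KO, against 4085 to 6279 in Eed control, and to 2437 to 3509 in 2KO, against 1502 to 1771 in Ring1 control. The inner root sheath keratins among them (Krt25, Krt27, Krt28, Krt71 and Krt73) were at 115 or below in every library. Of the hair follicle markers, the authors' deposited table called Krt27 higher in Eed KO and Krt24, Cd34, Lhx2 and Lgr5 higher in 2KO, and 0 lower. Over all genes it called 0.707% higher in Eed KO and 1.18% in 2KO. Melanocyte markers (8 of 8) summed to 558 to 966 in Eed KO, against 713 to 792 in Eed control. They summed to 353 to 658 in 2KO, against 241 to 311 in Ring1 control, with Tyrp1 at 0 in both Ring1 controls. Mlana had 49.2, 7.26 and 41.0 in Eed KO and 0 in every Eed control. The authors' deposited table called Mlana higher in Eed KO (adjusted p = 0.00168) and Tyrp1 higher in 2KO (adjusted p = 3.48e-05). Of the 6 melanocyte markers tested by limma in Eed KO, 3 were positive and 3 negative. Fibroblast markers (8 of 8) summed to 2172 to 4053 in Eed KO, against 1224 to 2796 in Eed control, and to 602 to 1771 in 2KO, against 2129 to 2310 in Ring1 control. Dcn had 863, 306 and 129 in Eed KO, against 19.5, 34.5 and 74.8 in Eed control. The authors' deposited table called Dcn higher in Eed KO (adjusted p = 0.000238), and 6 of 7 fibroblast markers tested by limma were positive there. Most of the Ring1 control sums was Fn1, with 899 and 330 in 2KO, against 1971 and 2142 in Ring1 control. Fn1 was called lower in 2KO by the authors' deposited table (adjusted p = 0.00753), where 0.31% of all genes were. By contrast, Col1a1 had 51.9 and 48.4 in 2KO, against 11.5 and 24.9 in control, and the list's median log2 fold change in 2KO was 0.67. Summed ranges overlapped between groups in both comparisons for T cell markers (7 of 8), endothelial markers (6 of 6 in the Eed table and 5 of 6 in the Ring1 table), sebaceous gland markers (7 of 7) and Langerhans and other myeloid markers (8 of 8). Most of the T cell sum was Thy1, of the endothelial sum Pecam1 and of the sebaceous gland sum Scd1, so these sums say little about the other markers. In 2KO 6 of 7 tested Langerhans and other myeloid markers were negative. Their median log2 fold change was −1.07, and from −1.67 to −0.12 with each library left out. The part of these cells in the values of the members was not tested.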

How the data were processed

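Per the labels' protocols, amplified total RNA was sequenced as paired-end reads; per the submitters' processing notes, the tools were kallisto 0.42.5 and DESeq2 on mm10. Strand use is not given in the sources used here. The per-library values deposited by the authors are signal values, namely normalized counts, that is reads over a size factor for each library, with 100% of values whole multiples of 1 step in every library (tolerance 1e-06), so reads could be recovered. The log2 fold changes in the authors' deposited table are theirs, as are its p-value columns. The 2 tables were normalized separately, so tests stayed within a table except for the difference of fold changes.

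limma 3.58.1 (trend, robust) was fitted in R 4.3.3 to log2(value + 1), keeping genes whose mean in the table reached 5, with Benjamini-Hochberg adjustment over all genes tested and a threshold of 0.05. A run of this fit on simulated counts, with the same dispersion for every gene, checked only that median estimates lay near the set changes. Error rates and power at the spread of these libraries were not checked. Exact permutation tests used scipy 1.17.1. Positions and transcript lengths are from GENCODE M21, which has the build of mm10. Confidence intervals are at 95%. Alternatives were a filter at a mean of 50 or none, pseudocounts of 0.5 and 5, a threshold of 0.1, quantile normalization, scaling without keratins, the authors' calls, DESeq2 1.42.0 and edgeR 4.0.16 on recovered reads, 1 fit over 10 libraries, a replicate block and each library left out; DESeq2 without each library was added after seeing the data. The members and the 16 gene lists were chosen with earlier results of these data known. Named genes were the members, the targeted genes, up to 6 other keratins per table, up to 4 genes of a list by smallest p, and 3 genes per member with the nearest profile, of which 1 is not reported here. Krt5 and Krt14 beside the members, Krt16, genes called in the authors' table and genes named among the other-cell markers were named after their values were seen. Totals and steps cover counting error only, since amplified reads are not independent molecules.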

Additional observations from a re-analysis of the deposited data

Results flagged for a closer look

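The ratio of Krt2 to Krt1 was set apart because every knockout library of one comparison lay on one side of its controls and every knockout library of the other comparison on the opposite side. The log2 ratio per kilobase was 3.43 higher in Eed KO than in Eed control and differed by −1.94 between Ring1a/b 2KO and Ring1 control. The difference between these 2 values was not tested, and the ratio was chosen after the members' values had been seen. Krt2 had more reads in Eed KO and Krt1 more reads in Ring1a/b 2KO.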

How the results depend on the processing

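The count of genes called in Eed KO was 0 with limma and 127 in the authors' deposited table and with DESeq2 on recovered reads, 10 in one fit over all 10 libraries, and from 0 to 4 with each library left out (DESeq2, 30 without Eed KO 1 to 189). In Ring1a/b 2KO it was 6 with limma, 10 with no filter, 231 in the authors' deposited table and with DESeq2, 0 with edgeR and 0 in one fit over 10 libraries; it was 0 without either Ring1 control, 13 without 2KO 2 and 565 without 2KO 1 (DESeq2, 39 without control 1 to 679 without 2KO 1). The difference between the models had 0 calls, and from 0 to 4 with each library left out. Krt2 in Eed KO passed the threshold in the authors' deposited table and with DESeq2 (3.12 in both), with a range of 1.98 to 3.52 over DESeq2 runs without each library. Krt1 in 2KO passed in both as well (1.34), with 1.05 to 1.61 over limma runs and 1.04 to 1.61 over DESeq2 runs without each library. Over such limma runs the Eed KO log2 fold changes were 2.14 to 3.41 for Krt2, −0.96 to −0.22 for Krt1, −1.07 to −0.44 for Krt10, −1.15 to −0.66 for Krt77 and −0.72 to −0.35 for Krt80. The 2KO log2 fold changes were −1.53 to 0.32 for Krt2, −0.037 to 0.44 for Krt10, −3.52 to −0.31 for Krt77 and −1.40 to −0.44 for Krt80, and over DESeq2 runs −1.45 to 0.42 for Krt2 and −0.041 to 0.45 for Krt10. The difference between models was −0.67 to 2.54 for Krt77 and −0.15 to 0.82 for Krt80. The 2KO ratio to Krt5 plus Krt14 was −1.33 to 0.13 for Krt2 and −0.039 to 0.46 for Krt10. The median of late differentiation genes was −0.84 to −0.15 in 2KO and −0.84 to −0.30 in Eed KO; that of spinous genes was −0.42 to 0.14 in 2KO and that of regulators −0.58 to −0.037. In all, 284 of 305 alternative values for members kept their direction and side of the threshold, as did 67 of 70 for ratios; 25 of 61 counts of called genes moved by over 1.5 times or to or from 0, and 30 of 209 list medians moved by more than the spread between libraries. The causes were not tested. With 2 libraries a group, and the shallower at 6237389 reads, small differences in 2KO may have been missed, and power was not checked.

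Replicate numbers are shared between groups. Deviations of same-numbered Eed libraries had correlations of −0.11, 0.15 and 0.21, and not every Eed library correlated best with its own number. The value for the Ring1 libraries was 0.14, but with 2 libraries a group such values can differ only in sign and cannot decide pairing. Column headers of the Eed libraries also share a letter within each number, and library 2 was the shallower in both Ring1 groups. What the numbers mark is not stated, so they were not taken as pairs, and pairing was not excluded. Each Eed KO library had fewer Krt1 and Krt10 reads than the control of its number. With a replicate block limma called 1 gene in Eed KO, 36 in 2KO and 0 for the difference, and no member.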
